A study of Caenorhabditis elegans with 2 samples.

Results

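T28B11.1 is a Caenorhabditis elegans gene for an F-box domain protein, on the minus strand of chromosome V at V:10712165-10732422 in the RefSeq annotation of build WBcel235. Every region of the peak lists with a summit inside the gene or within 5 kb of it was taken, a window of 30.3 kb at V:10707165-10737422. That gave 9 of the 1604 regions of the optimal list, 24 of 29629 in the pooled list, 24 of 29577 in the list of replicate 1 and 27 of 28681 in that of replicate 2. The gene had been chosen by its many and high-scoring regions in the optimal and pooled lists, so its region counts and scores are a description of what chose it, and no test was made on them.

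The data are chromatin immunoprecipitation with sequencing (ChIP-seq) of the protein of Y55F3AM.14, also named znf-782, a gene for a C2H2 zinc finger protein. There was 1 group with 2 biological replicates, both made with an antibody against GFP. Both came from whole L2 larvae of mixed sex of strain OP608, which were starved at L1 after bleaching and were 42 hours old. The strain is unc-119(tm4063) and carries the transgene wgIs608, which holds Y55F3AM.14::TY::EGFP::3xFLAG together with unc-119(+). Both samples are of this strain, and no untagged worms and no other factor were set against it here, so whether the regions are particular to the tagged protein was not tested. Because whole animals were used, binding in few cells and weaker binding in many cells cannot be told apart.

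F-box proteins are the subunits of SCF-type ubiquitin ligases that bind the proteins to be marked for degradation, and the family is very large in C. elegans. C2H2 zinc fingers are DNA-binding modules of many transcription factors. A ChIP-seq peak marks a stretch of DNA recovered with the tagged protein, and its summit is the position of the highest signal. The score is the signal value from the authors' peak caller. The optimal list was drawn with a reproducibility threshold, whereas the pooled and replicate lists are relaxed and hold background as well as peaks. The 1604 optimal regions are also the 1604 with the highest scores in the pooled list. A place in the optimal list therefore does not show that a region recurred in each replicate. The depth of sequencing behind the lists is unknown.

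T28B11.1 has 5 exons in its longest RefSeq transcript. The first exon, of 83 bp, is untranslated and lies 17.1 kb from the second, and the other 4 exons are packed into the downstream end of the gene. The large first intron, V:10715249-10732339, holds 24 short non-coding RNA genes, 11 on the plus strand and 13 on the minus strand, each 121 to 567 bp long. A second RefSeq transcript, T28B11.1b.1, starts in exon 3 at position 10714878. The Ensembl annotation of the same build also has a transcript that starts at the second exon, at 10715248, and so lacks the large intron.

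The optimal regions are numbered here in the order of their coordinates, so that region 1 lies beyond the downstream end of the gene and region 9 nearest its upstream start. Of the 9, 6 had their summit in the large intron (regions 4 to 9). Region 3 lay in coding exon 3, region 2 in the untranslated part of exon 5, and region 1 had its summit 257 bp past the annotated end of the gene. In the whole optimal list, 25.6% of summits lay in an intron of a protein-coding gene. The large intron makes up 17091 bp of the gene's 20258 bp, and it held 6 of the 8 optimal summits inside the gene. Whether it held more or fewer than its length would give was not tested.

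The strongest was region 4 (V:10715830-10716144, summit 10716007), with a score of 793.0 in the pooled list, sixth in rank among all optimal regions and first among the 301 on chromosome V. Its summit lay in the large intron, 16415 bp downstream of the upstream start, 759 bp upstream of the start that Ensembl places at exon 2 and 1129 bp upstream of the start of T28B11.1b.1. A pair of overlapping non-coding RNA genes on opposite strands, T28B11.18 and T28B11.4, both span the summit. Region 5 (V:10717296-10717719, score 329.5, rank 108) had its summit inside another, T28B11.7. Region 6 (V:10719784-10720207, score 339.2, rank 105) had its summit in intron sequence 290 bp from the nearest non-coding RNA gene, T28B11.13.

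The plus-strand sequence from 50 bp before to 50 bp after the summit, read from the RefSeq genome of WBcel235, is shown for these 3 strongest regions, for region 7, whose summit neither replicate list matched within 100 bp, and for region 1, the one outside the gene. Capitals mark GAGAGA and GACGC on either strand, the motifs being taken from an earlier description of these data.
Region 4, V:10715957-10716057: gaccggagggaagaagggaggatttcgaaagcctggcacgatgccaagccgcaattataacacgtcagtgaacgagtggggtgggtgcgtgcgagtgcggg
Region 6, V:10719946-10720046: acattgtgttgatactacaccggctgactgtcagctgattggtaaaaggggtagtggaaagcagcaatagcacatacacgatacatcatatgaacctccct
Region 5, V:10717458-10717558: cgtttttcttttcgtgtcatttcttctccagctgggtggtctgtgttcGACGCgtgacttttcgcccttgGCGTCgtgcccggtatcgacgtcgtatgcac
Region 7, V:10722055-10722155: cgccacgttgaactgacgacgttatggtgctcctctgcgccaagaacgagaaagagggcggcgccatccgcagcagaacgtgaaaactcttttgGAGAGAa
Region 1, V:10711858-10711958: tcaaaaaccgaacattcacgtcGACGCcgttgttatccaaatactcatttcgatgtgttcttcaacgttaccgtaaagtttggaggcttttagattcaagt

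The 3 strongest regions did not share either motif. Neither motif occurs in the printed window of region 4 or of region 6, and that of region 5 holds GACGC and, 22 bp further on, its reverse complement GCGTC. With 75 bp on each side of the summit, 4 of the 9 regions held GAGAGA (regions 3, 5, 7 and 8), beside 34.5% of all optimal regions and 12.6% of the weaker regions, meaning pooled regions without any overlap with an optimal one. GACGC was held by 5 (regions 1, 2, 5, 7 and 8), beside 31.4% of optimal and 13.7% of weaker regions. Regions 4, 6 and 9 held neither. The motifs cannot overlap each other beyond 2 bases, and a match is only a match of letters.

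No word of 8 bases, counted on both strands, was shared by more than 3 of the 9 windows of 151 bp, and the only 2 shared by 3 were aaaagaaa and gagaagaa, which 7.86% and 5.36% of all optimal windows also hold. The GC content of the windows ran from 36.4% in region 8 to 61.6% in region 4, with a median of 45.7%, beside medians of 47.7% over optimal and 40.4% over weaker regions. Every stretch of 30 bases in the 9 windows occurs once in the genome, which holds for 86.8% of all optimal windows.

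The other regions had lower scores. Region 9 (V:10729456-10729879) scored 212.7 and stood apart, its summit 7364 bp from that of region 8 and 2754 bp downstream of the upstream start. Region 1 (V:10711696-10712119) scored 175.1, region 7 (V:10721893-10722316) 173.1 and region 3 (V:10714638-10715061) 157.7. Region 8 (V:10722092-10722515) scored 141.3, with its summit 199 bp from that of region 7, so that these intervals overlap. Region 2 (V:10712363-10712786), in the part of exon 5 that is not translated, scored 124.0 and was the lowest.

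Region 3 stands at the start of the short transcript: its summit lay 28 bp inside T28B11.1b.1 and 398 bp inside the Ensembl transcript that begins at exon 2. By contrast, the pooled summit nearest to the upstream start of the gene lay 1275 bp inside it, and the 5 kb upstream of the gene had no pooled summit. The gene there is mre-11, for a nuclease of DNA double-strand break repair, with wdr-5.3, a homolog of WDR5, behind it. Between their divergent starts replicate 2 alone listed a region, with a score of 26.3 at summit 10736878, and neither the pooled list nor that of replicate 1 had one.

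**Figure D1:**
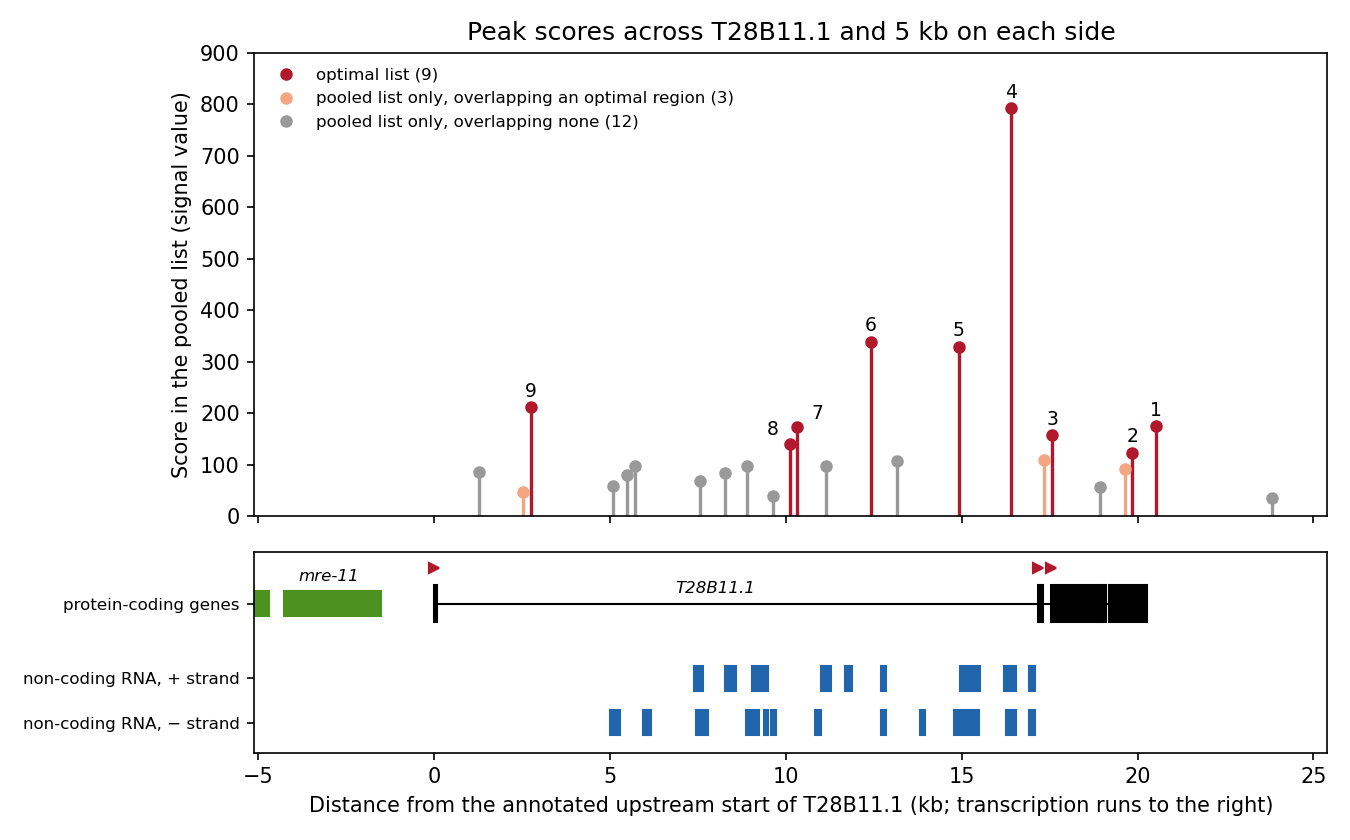
Scores of the 24 pooled regions (upper panel, signal value) against the distance of their summits from the upstream start of T28B11.1 in kb, with exons in black, neighbouring genes in green, non-coding RNA genes in blue and annotated starts of T28B11.1 as red triangles (lower panel; RefSeq, and Ensembl for the middle triangle). The 9 optimal regions carry their numbers, region 4 is the highest at 793.0, and no pooled summit lay in the 5 kb upstream of the gene.

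The 15 pooled regions of the window that are not in the optimal list scored 36.8 to 108.9, and 14 of them had their summit inside the gene. In all, 9 of the 24 pooled regions were optimal, beside 5.41% of the whole pooled list, a share that the choice of the gene had used. The lowest optimal member, region 2 at 124.0, and the highest one left out, at 108.9 (summit 10715070, in the second intron), stand on either side of the list's limit. The lowest optimal score of all was 110.3. Next below were a region with summit 10719252 at 106.9 and 3 more with scores of 97.1 to 97.4 at summits 10721268, 10723522 and 10726701, all in the large intron. Of the 15, 9 had a summit within 100 bp in both replicate lists. The share over all pooled regions outside the optimal list is not given here, so 9 of 15 cannot be called high or low.

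The pooled regions took up 40.1% of the gene's length, beside 11.9% of the genome. This share largely follows from the number of pooled regions, which the choice of the gene had used. Non-coding RNA genes cover 23.5% of the large intron and held the summits of 7 of its 17 pooled regions, among them 2 of the 6 optimal ones. In the whole optimal list, 19.8% of intronic summits lay inside a non-coding RNA gene or a pseudogene. Of the 24 nested genes, 9 held a pooled summit and 15 did not. A start of a non-coding RNA gene lay within 500 bp of the summit in 4 of the 9 optimal regions (regions 3 to 6), beside 34.7% of all optimal regions. The other regions were farther from such a start, and the summit of region 9 was 2255 bp from T28B11.20, the nearest of these genes.

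The replicates ask which of these regions recur in separate samples. Region 4 scored 422.6 in replicate 1 and 373.6 in replicate 2, where it held ranks 7 and 8, and its summits lay 1 and 10 bp from the pooled summit. Region 6 scored 185.1 in replicate 1 and 154.3 in replicate 2, and region 9 scored 114.1 in replicate 1 and 97.1 in replicate 2. Region 3 scored 83.0 in replicate 1 and 78.0 in replicate 2. The log2 ratios of replicate 1 over replicate 2 in these 4 regions were 0.09 to 0.26.

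Regions 5, 2 and 8 were less even. Region 5 scored 218.9 in replicate 1 and 115.4 in replicate 2, a log2 ratio of 0.92. Region 2 scored 79.2 in replicate 1 and 46.1 in replicate 2, a log2 ratio of 0.78, and stood at rank 2450 in replicate 2, below the 1604 highest. Region 8 scored 128.0 in replicate 1 and 45.4 in replicate 2, a log2 ratio of 1.50, at ranks 309 and 2541. Its replicate 1 row lay between the summits of regions 7 and 8, 103 bp from the former and 96 bp from the latter. Replicate 2 listed separate rows at that place, with scores of 61.0 and 45.4, so the ratio for region 8 may not compare like with like. The middle 80% of all matched optimal regions had log2 ratios of -0.32 to 0.84, so that regions 5 and 8 lay above that range.

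**Figure D2:**
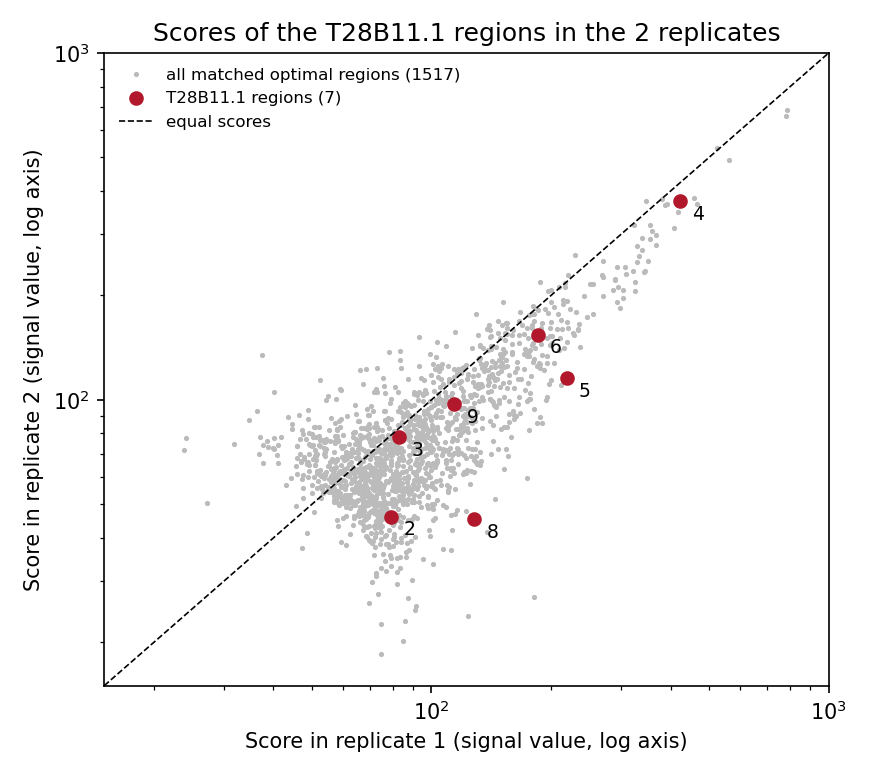
Score of each optimal region in replicate 2 against its score in replicate 1 (signal value, log axes), for the 7 T28B11.1 regions with a summit within 100 bp in both lists (red, numbered) and for all 1517 such optimal regions (grey). Regions 3, 4, 6 and 9 lie near the dashed line of equal scores, and region 8 lies farthest to its right, at 128.0 in replicate 1 and 45.4 in replicate 2. The replicate 1 row used for region 8 lies between the pooled summits of regions 7 and 8.

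In all 7 regions with a summit in both lists the score was higher in replicate 1, as it was in 74.3% of all matched optimal regions. The median log2 ratio of replicate 1 over replicate 2 was 0.26 over the 7 and 0.26 over the 1517 matched regions of the whole list. The scores were taken as deposited, and whether they are already scaled to depth is not known. A summit in both replicate lists was found for 7 of the 9, beside 94.6% of all optimal regions. The exceptions were regions 1 and 7.

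Region 7 was 1 of only 2 in the whole optimal list with no summit within 100 bp in either replicate. The nearest was 103 bp away in replicate 1, the same row that matches region 8, and 111 bp away in replicate 2, with a score of 61.0. Replicate 1 listed 1 summit, with a score of 128.0, between the pooled summits of regions 7 and 8. Replicate 2 also listed 1 between them, with a score of 45.4, and its summit with a score of 61.0 lay on the downstream side of region 7. Region 1 scored 112.3 in replicate 2, with a summit 1 bp from the pooled one. In replicate 1 that place was split into a region with a score of 77.4 at 123 bp and another with a score of 24.3 at 102 bp. The intervals of all 9 regions overlapped a region in both lists. These lists are relaxed and hold background, and the share of all optimal regions with such an overlap is not given here. The overlap therefore does not set regions 1 and 7 apart from other optimal regions.

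Among the 1604 highest-scoring regions of each replicate, the window held 11 in replicate 1 and 7 in replicate 2. Both sets included regions 3, 4, 5, 6 and 9. Replicate 1 also had summits 10715070, 10721268 and 10726701 there, which the pooled list ranked below the optimal limit, and in replicate 2 the nearest rows to them, not all within 100 bp, scored 39.3, 38.7 and 34.8. Conversely, summit 10724152 scored 28.6 in replicate 1 and 49.9 in replicate 2, and summit 10724870 had a match within 100 bp in replicate 2 alone, with 45.8. Rows more than 100 bp from every pooled summit numbered 5 in replicate 1 and 9 in replicate 2.

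The window as a whole held 2.97 optimal regions per 10 kb, beside 0.160 in the genome. The next optimal summits lay 30720 bp beyond the downstream end of the gene (score 172.8) and 75715 bp beyond its upstream end (score 113.8). Only 3 protein-coding genes of 19971 (0.0150%) had 9 or more optimal summits in the gene or within 5 kb. The other two were icl-1, for an enzyme of the glyoxylate cycle, and its neighbour srh-2, a chemoreceptor gene, which share the same 9. Within the gene body alone, T28B11.1 had 8, more than any other gene, while icl-1 had 3.

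These clusters differed in size and strength. The 9 regions of T28B11.1 had scores that summed to 2446, of which region 4 gave 32.4%, and the 9 of icl-1 summed to 1957 in a window of 13.7 kb, with a highest score of 350.8. The gene ppfr-1, for a regulatory subunit of protein phosphatase 4, had 7 regions with a sum of 3850, all 7 inside the gene, and a highest score of 1438. The next genes were din-1, for a partner of the nuclear receptor DAF-12, with 7 regions and a sum of 1342, fkh-7, a forkhead gene, with 6 and 1769, and the calmodulin gene cmd-1 with 6 and 1763. Near saeg-1 there were 6, with a sum of 1259. Windows differ in length. Per 10 kb of window, icl-1 had 6.58 optimal regions, cmd-1 5.03, T28B11.1 2.97, saeg-1 2.59, din-1 2.43, ppfr-1 1.95 and fkh-7 1.68. These genes were picked for their counts, so no difference between them was tested.

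The order of the genes differed between replicates. By the 1604 highest regions of replicate 1 alone, T28B11.1 with 11 had more in its window than any other protein-coding gene. By those of replicate 2 alone it had 7, level with din-1, fkh-7, ppfr-1, saeg-1 and T21H3.5 and below icl-1 and srh-2, each with 10, and cmd-1 with 8. The place of T28B11.1 at the head of the count in the gene's window was thus found in replicate 1 and not in replicate 2.

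The large intron of T28B11.1 is the ninth longest among the largest introns of protein-coding genes. Of the 81 genes with an intron of 10 kb or more, 60 had no optimal summit in it and 14 had 1 or 2. T28B11.1 had 6, ppfr-1 had 4 in an intron of 10.4 kb, and fkh-7 had 3 in one of 16.5 kb. The others with 3 were aakg-1, daf-2, lin-14 and sea-2, named after their values were seen. Most introns of this size class held none. T28B11.1, ppfr-1 and fkh-7 had been picked for their optimal counts, so their lead here was not tested.

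**Figure D3:**
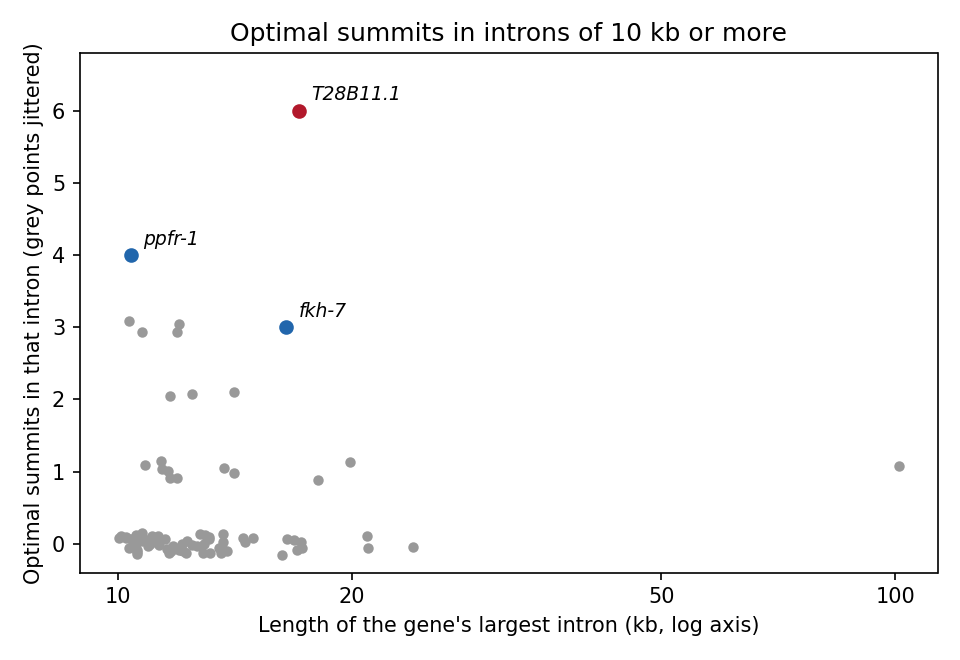
Number of optimal summits in the largest intron of each of the 81 protein-coding genes with an intron of 10 kb or more, against its length in kb on a log axis. T28B11.1 (red) had 6, ppfr-1 had 4 and fkh-7 had 3 (blue), and 60 of the introns had none (grey points, jittered for sight).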

How the data were processed

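Each replicate is a ChIP-seq library of whole L2 larvae, with chromatin fragments of 200 to 800 bp, per the labels. The analysis used 4 peak lists on build ce11, the UCSC name for WBcel235. Per the deposited README, each replicate list came from that replicate and a control, the pooled list from both and the control, and the optimal list from all 3 by an irreproducible discovery rate threshold. Which aligner, caller and threshold were used is not given in the sources used here. The authors deposited a signal value per region, called the score, the summit offset and the −log10 of a q-value, which ran from 1.60 to 2.78 in the optimal list. Read totals are unknown, and scores were used as deposited, with no scaling to depth added.

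Summits were placed against RefSeq genes in Python 3.11.15 with pandas 2.3.3, with Ensembl release 115 as a second annotation. A region matched a replicate at summits within 100 bp. Functions were tested on simulated data. Coordinates count from 1. No p-value is given: the gene, its comparison genes and motifs were chosen with earlier results of these data known. Named genes were the neighbours within 5 kb, the genes with most optimal summits in windows that do not overlap, and 3 known clusters. No group was compared with another, and the labels call the samples biological replicates. Alternatives varied flank, matching, list, annotation and motif window.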

Additional observations from a re-analysis of the deposited data

How the results depend on the processing

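The counts rest on summit positions in lists whose depth is unknown, and no control or other factor was analysed. Of 30 alternatives over 7 results, 27 stayed near the main value. For counts this meant within 1.5 times the main count. For the log2 ratio it meant within 1 SD over the matched regions (0.52), which is wider than the main ratio of 0.26. Even a large fall in that ratio therefore counted as staying. In place of the optimal count of 9, the 1604 highest-scoring regions of a single replicate gave 11 in replicate 1 and 7 in replicate 2. No optimal list was rebuilt from 1 replicate. The optimal count was 8 with the gene alone or with summits within 200 bp joined. The pooled count of 24 ran from 22 to 27 under all its alternatives. The number of regions seen in both replicates was 6 within 50 bp and 9 within 200 bp. The shares of all optimal regions at these distances are not given here. Divided by each replicate's median score over all matched optimal regions, the scores gave a median log2 ratio of 0.03. Optimal summits near a non-coding RNA start fell to 2 within 250 bp, against 4 within 500 bp, and those with GAGAGA to 2 within 50 bp, against 4 within 75 bp. Intronic summits numbered 5 with the summits of either replicate alone, 4 without those in nested genes, and 0 in the Ensembl transcript that starts at exon 2, which lacks the large intron; the last pair of alternatives was chosen after seeing the data.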
